A study of Mus musculus with 2 samples.

Results

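The genes described here are 9 members of the IL-33 axis and of the type 2 cytokine programme, taken by name from 24785 genes in the count tables: Il33, Il1rl1, Gata3, Il4, Il5, Il13, Il17rb, Calca and Il4ra. All 9 were present in both tables. Single-cell RNA-seq was performed on living CD45+ cells sorted from C57BL/6N mouse lungs, with transcripts counted by unique molecular identifiers (UMIs). The BLM library came from lungs taken 15 days after intratracheal bleomycin (50 µg per mouse, mice aged 10 to 16 weeks per the study's methods), a chemotherapy agent used to induce lung injury and fibrosis. The naive library came from untreated lungs. The methods call the mice of the bleomycin procedure matched in age and sex, and give no separate age for the naive pool. Each library was a pool of 3 mice. After filtering, 4391 BLM cells (21178260 UMIs, median 2380 per cell) and 3808 naive cells (16874692 UMIs, median 2699.5) remained, and 17 cell barcodes were found in both. There was 1 library per group, so groups were not tested against each other, library and treatment cannot be told apart, and all intervals below cover counting error only.

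IL-33 is an alarmin, a cytokine held in the nucleus of stromal and barrier cells and released when they are damaged. It signals through ST2, the product of Il1rl1, which is carried by group 2 innate lymphoid cells (ILC2), mast cells and a tissue subset of regulatory T cells (Tregs). Gata3 encodes the transcription factor that ILC2 and type 2 helper T cells depend on, and Il4, Il5 and Il13 encode the cytokines these cells secrete. Il17rb encodes a receptor chain for IL-25, another alarmin. Calca encodes calcitonin and the neuropeptide CGRP, and Il4ra encodes the receptor chain shared by IL-4 and IL-13.

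The genes were followed in 6 classes of cells, whose names mean cells like that class. There were 37 BLM and 116 naive ILC2, 75 and 28 Tregs, 729 and 642 other T cells, 4 and 10 basophils or mast cells, 202 and 202 dendritic cells, and 123 and 51 stromal cells. The 9 genes were left out of the variable genes used for clustering, but a cell that expresses them also expresses genes that move with them. The ILC2 cluster was led by Il5, Csf2, Hlf, Gata3 and Il1rl1 and the Treg sub-cluster by Il1rl1 all the same, so levels within a class are descriptions. All 13 ILC2 markers, which include none of the 9 genes, were detected in the ILC2 of each library. Tregs held 10 of the 13 in BLM and 11 in naive, so detection alone does not set ILC2 apart. Summed, the markers stood at 9457 and 8287 CPM in BLM and naive ILC2 and at 7128 and 3145 CPM in BLM and naive Tregs. A Cd3e UMI was present in 3 of 37 BLM and 8 of 116 naive ILC2, and Foxp3 was at 0 in all of them. Other T cell genes were seen, with 6 of a list of 7 detected in the ILC2 of each library. Summed, that list stood at 734 and 585 CPM in BLM and naive ILC2, against 4500 and 4147 CPM in Tregs. In the Tregs, all 8 Treg markers were detected and a Foxp3 UMI was present in 60 of 75 BLM and 18 of 28 naive cells. A UMI of Lyz2, a myeloid gene, was seen in 83.8% of BLM and 82.8% of naive ILC2. It was also seen in 85.3% of BLM and 96.4% of naive Tregs, and its source was not tested. Levels in B cells served as the background. In 636 BLM and 822 naive B cells there were 0 and 1 UMIs of Il4, 0 and 0 of Il13, 2 and 9 of Gata3, 1 and 1 of Il17rb and 4 and 0 of Calca.

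For each class UMIs were summed, and levels are counts per 1000000 UMIs of the summed cells (CPM) with the exact Poisson 95% interval in brackets. Ratios are log2 of BLM over naive CPM with the exact conditional 95% interval. These intervals treat UMIs as independent, which the UMIs of 1 cell are not, so the number of cells with a UMI is given for the main levels. Where no cell held a UMI, the share of cells allowed is 3 counts over the number of cells, which is not the exact interval.

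**Figure D1:**
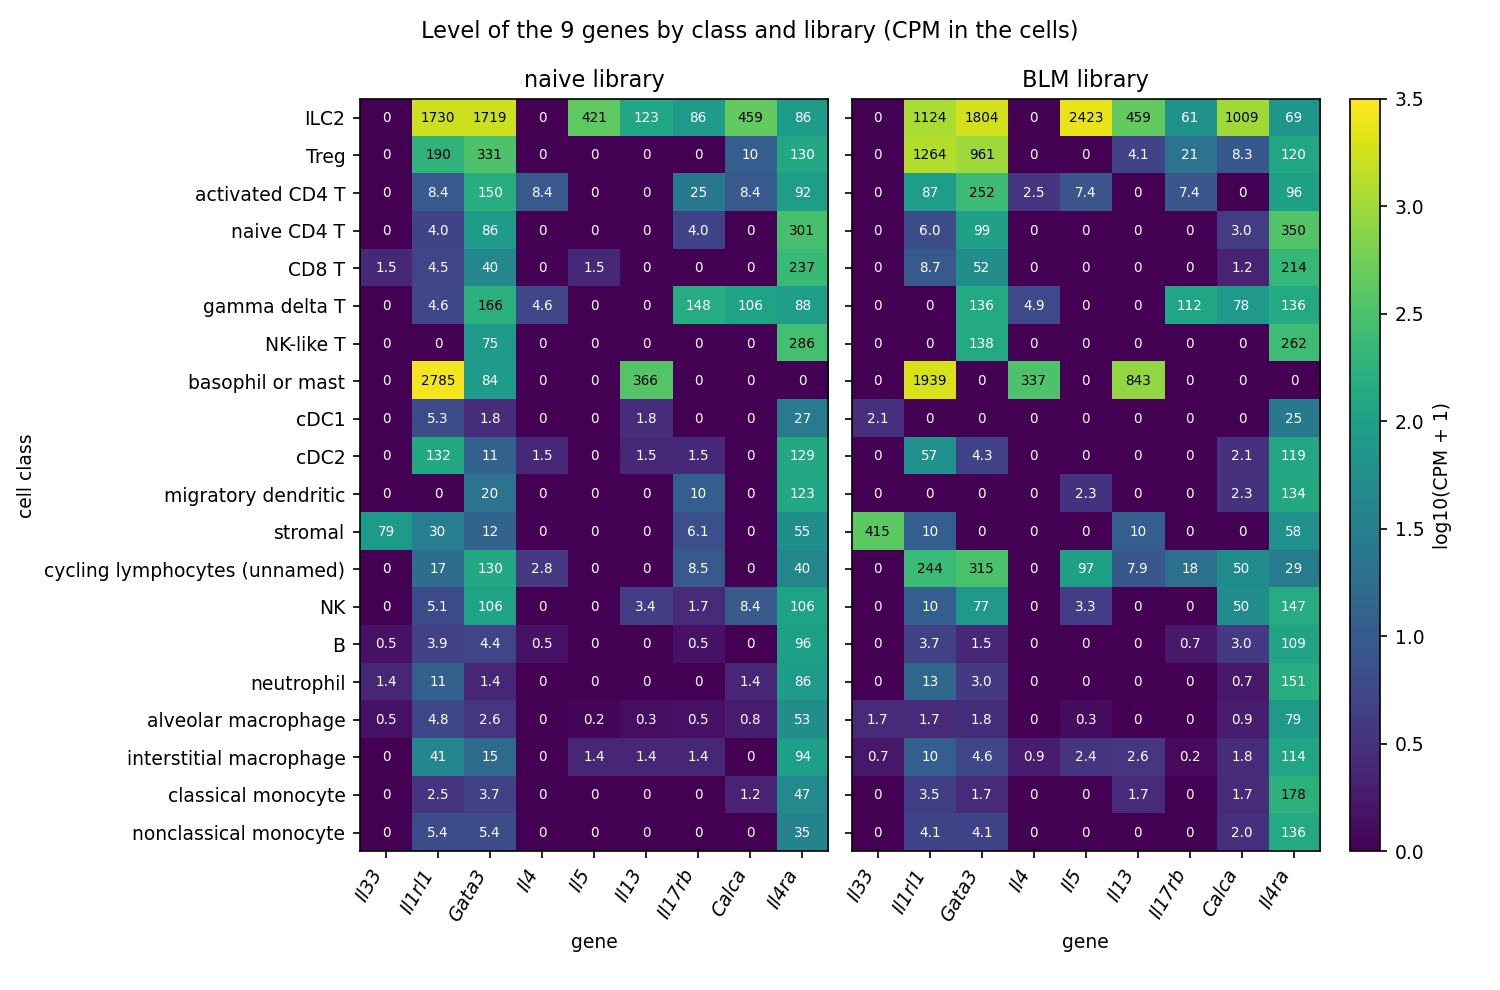
Level of each of the 9 genes (columns) in CPM in each class of cells (rows), for the naive library on the left and the BLM library on the right; colour is log10(CPM + 1) and the printed number is the CPM. Il5 was seen at 2423 CPM in BLM ILC2 against 421 CPM in naive ILC2, Il1rl1 at 1264 CPM in BLM Tregs against 190 CPM in naive Tregs, and Il33 at 415 CPM in BLM stromal cells against 79.1 CPM in naive stromal cells.

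Among the cytokine genes, Il5 and Il13 lay mostly in ILC2, and both were higher in the ILC2 of the BLM library. ILC2 made up 0.843% of BLM and 3.05% of naive cells but held 85.2% of the 372 Il5 UMIs of the BLM library and 97.4% of the 116 Il5 UMIs of the naive library. For Il13 the shares were 65.9% of 91 UMIs and 62.3% of 53 UMIs. Calca, the neuropeptide gene, followed the same distribution, with 63.2% of 209 BLM UMIs and 75.9% of 162 naive UMIs in ILC2.

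Il5, which encodes the growth and survival factor of eosinophils, ranged from 0 to 92 UMIs per cell (median 1) in the 37 BLM ILC2 and from 0 to 46 (median 0) in the 116 naive ILC2. The 2 libraries overlapped, since cells without Il5 were found in both, and the highest cells were in BLM. A UMI was present in 23 BLM cells, or 62.2% (95% Clopper-Pearson interval 44.8 to 77.5%), and in 33 naive cells, or 28.4% (20.5 to 37.6%). BLM ILC2 were deeper (median 2995 against 2279.5 UMIs per cell), and the mean shares in cells thinned to 1000 UMIs, without 2 naive cells under that depth, were 41.4% and 16.7%. The level was 2423 CPM [2164, 2705] in BLM and 421 CPM [347, 506] in naive ILC2, a log2 ratio of 2.52 [2.21, 2.85]. The 5 highest cells carried 77.6% of the BLM and 70.8% of the naive Il5 UMIs. Without the highest cell of each library the log2 ratio was 2.86. No Il5 UMI was seen in 636 BLM and 822 naive B cells (median depth 1654 and 1957 UMIs), which allows up to 0.472% and 0.365% of cells with a UMI at this depth.

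Il13, which encodes the cytokine that drives mucus production and alternative macrophage activation, was seen in fewer cells. It ranged from 0 to 33 UMIs in BLM ILC2, where 11 of 37 cells carried it (29.7%, 15.9 to 47.0%), and from 0 to 14 UMIs in naive ILC2, where 5 of 116 did (4.31%, 1.41 to 9.77%). The median cell was at 0 in both libraries. Levels were 459 CPM [350, 590] and 123 CPM [84.7, 173], a log2 ratio of 1.90 [1.26, 2.56]. All 33 naive UMIs lay in those 5 cells, and 85.0% of the BLM UMIs lay in 5 cells. Without the highest cell of each library the log2 ratio was 1.62 [0.72, 2.55], on 27 and 19 UMIs.

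Calca ranged from 0 to 18 UMIs per cell in each library. Positive cells were 16 of 37 in BLM (43.2%, 27.1 to 60.5%) and 21 of 116 in naive ILC2 (18.1%, 11.6 to 26.3%), with a median of 6 and 4 UMIs per positive cell. Thinned to 1000 UMIs, the shares were 36.1% and 15.5%. The level was 1009 CPM [844, 1197] against 459 CPM [381, 547], a log2 ratio of 1.14 [0.77, 1.5]. Its paralogue Calcb, which encodes the other CGRP, was at 0 UMIs in the ILC2 of both libraries.

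Il4, unlike its neighbours, was not detected in ILC2. It was at 0 in all 37 BLM and 116 naive cells, which allows up to 8.11% and 2.59% of cells with a UMI at this depth and does not limit the share that expresses the gene, and only 11 BLM and 5 naive Il4 UMIs were seen in all kept cells. On chromosome 11 (GRCm38, GENCODE M21 annotation) Il4 lies at 53602982 to 53618669 on the minus strand and Il13 at 53631324 to 53634702 on the minus strand, 12.7 kb apart. Il5 lies at 53720794 to 53725106 on the plus strand, 86.1 kb beyond Il13, with Rad50 in between. The other members lie apart, Il33 on chromosome 19 (29925114 to 29960718, plus), Il1rl1 on chromosome 1 (40429570 to 40465415, plus), Gata3 on chromosome 2 (9857078 to 9890034, minus) and Il17rb on chromosome 14 (29996135 to 30008896, minus). Calca (114631478 to 114636357, minus) and Il4ra (125552120 to 125579474, plus) are both on chromosome 7.

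The members that characterise ILC2 in both libraries differed less. Gata3 ranged from 0 to 23 UMIs (median 4) in BLM and from 0 to 24 (median 3) in naive ILC2, and 34 of 37 and 102 of 116 cells carried it. The level was 1804 CPM [1581, 2050] in BLM and 1719 CPM [1565, 1883] in naive ILC2, a log2 ratio of 0.07 [-0.16, 0.30]. The ratio of Il1rl1 was -0.62 [-0.90, -0.35], from 1124 CPM [949, 1321] in BLM and 1730 CPM [1576, 1895] in naive ILC2. Il1rl1 ranged from 0 to 14 UMIs in each library (median 3 and 4) and was detected in 33 of 37 and 105 of 116 cells, or 63.7% and 77.2% after thinning to 1000 UMIs.

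The ratio of Il1rl1 depended on the scale, because BLM ILC2 held more UMIs in all (mean 3535 against 2312 per cell). Per cell, Il1rl1 averaged 3.97 UMIs in BLM and 4.0 in naive ILC2, whereas Gata3 averaged 6.38 and 3.97. On that scale the log2 ratio was -0.0098 for Il1rl1, 0.68 for Gata3, 3.14 for Il5 and 1.75 for Calca. Whether BLM ILC2 hold less Il1rl1 therefore turns on the scale, while Il5 and Calca were higher on both. Il17rb (8 UMIs in 7 BLM cells and 23 in 20 naive cells) and Il4ra (9 UMIs in 7 cells and 23 in 15) had log2 CPM ratios of -0.49 [-1.86, 0.72] and -0.32 [-1.61, 0.85], with intervals that include 0.

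**Figure D2:**
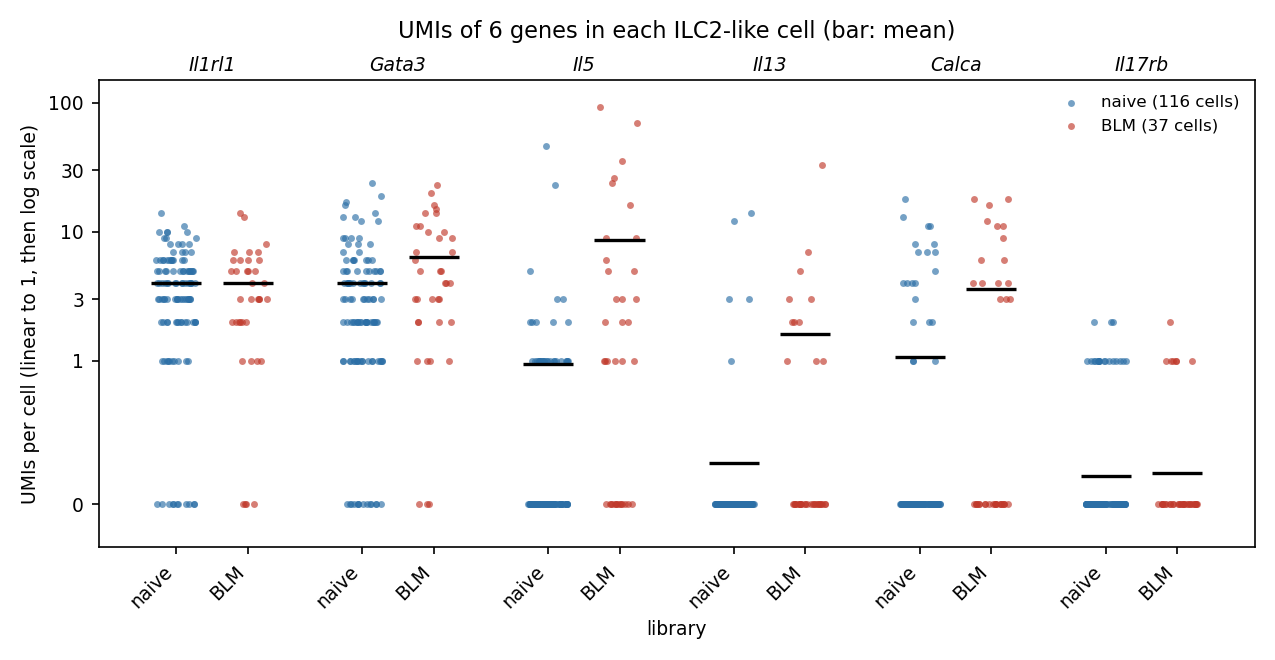
UMIs of Il1rl1, Gata3, Il5, Il13, Calca and Il17rb (vertical axis, linear to 1 and logarithmic above) in each of 116 naive (blue) and 37 BLM (red) ILC2; black bars are means over cells. Il1rl1 averaged 4.0 and 3.97 UMIs in naive and BLM ILC2, while Il5 averaged 0.974 and 8.57 UMIs, with 92 UMIs in the highest BLM cell.

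Of the 9 members, 7 reached 20 UMIs over both libraries in ILC2, and 3 of these (Il5, Il13 and Calca) were 2-fold or more higher in BLM while 0 were 2-fold or more lower. Among all 3195 genes with as many UMIs in ILC2, 4.66% were higher and 9.23% were lower by that measure, and the median log2 ratio was -0.063.

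Detection of the effector genes in the same cell was compared with the product of their shares. In BLM ILC2, Il13 and Calca were detected together in 9 cells (4.76 expected if unrelated), and Il5 and Il13 in 8 cells (6.84 expected). In naive ILC2, Il5 and Il13 were detected together in all 5 cells that held Il13 (1.42 expected), whereas Il13 and Calca shared 1 cell (0.905 expected). Deep cells detect more of every gene, so these counts are a description. At least 1 of Il5, Il13 and Calca was seen in 28 of 37 BLM cells and in 46 of 116 naive cells, and all 3 in 6 BLM cells and 1 naive cell.

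The stretches just before the start sites of Il5, Il13 and Calca, the members that were higher together in BLM ILC2, are shown with that of Il1rl1, the receptor gene that was not. They are the 250 bases before the start in RefSeq (GRCm38.p6), 5′ to 3′ on the gene's strand, at chr11:53720544-53720793 (plus) for Il5, chr11:53634703-53634952 (minus) for Il13, chr7:114636358-114636607 (minus) for Calca and chr1:40429320-40429569 (plus) for the more upstream Il1rl1 start. Capitals mark the letters that GATA factors such as the Gata3 product are known to bind, searched on both strands. The first motif was AGATAA with its variant ending in G instead, which is AGATAG, and the second motif was TGATAA with the same variant, which is TGATAG. Matches of different motifs could overlap.
Il5: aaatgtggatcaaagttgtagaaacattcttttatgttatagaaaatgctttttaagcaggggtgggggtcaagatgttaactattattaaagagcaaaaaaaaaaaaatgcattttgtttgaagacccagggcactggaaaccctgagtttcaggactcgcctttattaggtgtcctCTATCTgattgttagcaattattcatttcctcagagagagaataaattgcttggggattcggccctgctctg
Il13: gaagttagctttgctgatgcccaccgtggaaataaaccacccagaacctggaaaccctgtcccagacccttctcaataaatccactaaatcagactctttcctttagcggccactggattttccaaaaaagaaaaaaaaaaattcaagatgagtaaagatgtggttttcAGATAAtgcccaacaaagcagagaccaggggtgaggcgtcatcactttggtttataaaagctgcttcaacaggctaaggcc
Calca: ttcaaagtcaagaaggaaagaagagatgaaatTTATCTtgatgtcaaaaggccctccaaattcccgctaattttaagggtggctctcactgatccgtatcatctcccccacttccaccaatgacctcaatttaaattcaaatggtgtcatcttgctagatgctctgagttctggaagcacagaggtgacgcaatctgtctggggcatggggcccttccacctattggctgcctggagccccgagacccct
Il1rl1: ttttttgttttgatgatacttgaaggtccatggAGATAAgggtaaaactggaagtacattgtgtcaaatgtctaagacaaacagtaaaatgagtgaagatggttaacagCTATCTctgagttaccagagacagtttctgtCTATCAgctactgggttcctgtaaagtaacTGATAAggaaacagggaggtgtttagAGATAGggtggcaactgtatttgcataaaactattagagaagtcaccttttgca
Il5, Il13 and Calca held 1 match each, beginning 72, 81 and 218 bases before the start. The Il1rl1 stretch held 5, beginning 217, 141, 110, 80 and 54 bases before it, and the stretch of its other start held 1. Of 32851 RefSeq promoters cut to the same window, 26.5% held at least 1 match and 14 (0.0426%) held 5 or more. All 9 members matched a RefSeq promoter, with 12 starts in all, of which 6 held a match (besides those above, 1 of the Il4 starts). A match is a run of letters and was not tested as a binding site in these cells.

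In Tregs the receptor gene and the transcription factor gene were higher in BLM, and the cytokine genes were at or near 0. Il1rl1 ranged from 0 to 21 UMIs (median 2) in the 75 BLM Tregs and from 0 to 8 (median 0) in the 28 naive Tregs. It was detected in 49 BLM cells, or 65.3% (53.5 to 76.0%), and in 5 naive cells, or 17.9% (6.06 to 36.9%), at nearly equal median depths of 2875 and 2846.5 UMIs. Thinned to 1000 UMIs, with 1 shallower BLM cell left out, the shares were 51.0% and 13.2%. The level was 1264 CPM [1126, 1414] in BLM and 190 CPM [115, 297] in naive Tregs, a log2 ratio of 2.73 [2.06, 3.48]. The naive value rests on 19 UMIs.

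Gata3 was higher as well, at 961 CPM [842, 1093] in BLM and 331 CPM [228, 464] in naive Tregs, a log2 ratio of 1.54 [1.01, 2.11]. It was detected in 58 of 75 BLM cells (0 to 13 UMIs, median 3) and in 12 of 28 naive cells (0 to 7 UMIs, median 0). Both genes were detected together in 41 BLM Tregs (37.9 expected from their shares) and in 4 naive Tregs (2.14 expected). Foxp3 itself, which encodes the defining transcription factor of Tregs, stood at 783 CPM in BLM and 411 CPM in naive Tregs, so the classes of the 2 libraries differed in that marker too. Taking T cells with a Foxp3 UMI as the Tregs (76 and 22 cells), the log2 ratios were 2.13 for Il1rl1 and 1.11 for Gata3. Without integration of the libraries only 10 naive cells fell in the Treg sub-cluster, and the ratios were 1.35 and 0.94.

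Il4 and Il5 were at 0 in the Tregs of both libraries, and Il13 (1 and 0 UMIs), Calca (2 and 1 UMIs) and Il17rb (5 and 0 UMIs) were at a few UMIs. At 0 of 75 BLM and 0 of 28 naive Tregs, up to 4.0% and 10.7% of cells with an Il5 UMI are allowed at this depth, which does not limit the share that expresses it. Il4ra stood at 120 CPM [80.5, 173] and 130 CPM [69.3, 223]. Of the 3 members counted in Tregs, 2 were 2-fold or more higher and 0 lower in BLM, against 11.7% of 3029 genes higher and 7.99% lower.

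**Figure D3:**
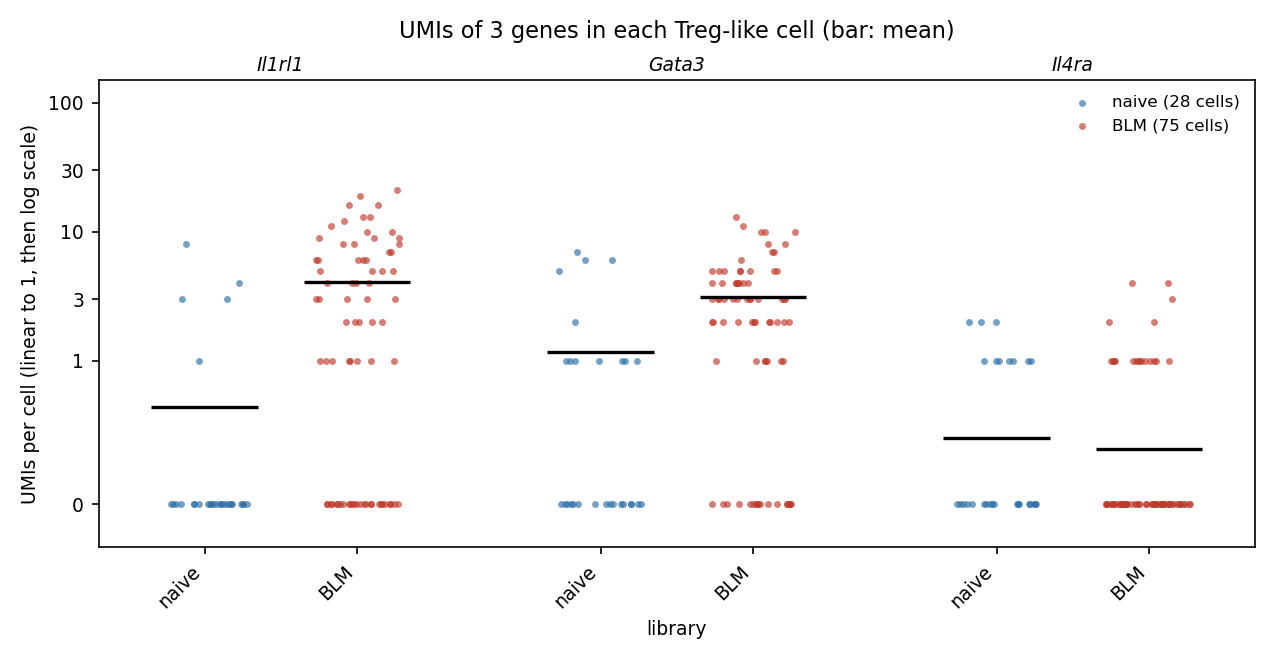
UMIs of Il1rl1, Gata3 and Il4ra (vertical axis, linear to 1 and logarithmic above) in each of 28 naive (blue) and 75 BLM (red) Tregs; black bars are means over cells. Il1rl1 was detected in 5 naive and 49 BLM Tregs and reached 21 UMIs in the highest BLM cell, while Il4ra was detected in 10 and 19 cells.

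The order of the classes by Il1rl1 therefore differed between the libraries. In the naive library basophils or mast cells (2785 CPM [2264, 3391]) and ILC2 (1730 CPM) stood above Tregs (190 CPM [115, 297]) and cDC2 (132 CPM [106, 163]), whose intervals overlap. In the BLM library basophils or mast cells (1939 CPM [1229, 2909]), Tregs (1264 CPM) and ILC2 (1124 CPM) overlapped in their intervals. The basophil or mast level mixes both types, and mast cells alone stood at 3768 CPM in BLM (1 cell) and 4645 CPM in naive (4 cells). Tregs held 41.2% of the 740 Il1rl1 UMIs of the BLM library, and ILC2 held 57.9% of the 801 of the naive library. B cells gave the background, at 3.74 and 3.91 CPM.

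Among the other T cells, the members sat in different sub-clusters. Activated CD4 T cells, a sub-cluster led by Rgs1, Itgb1 and Maf, held 35 Il1rl1 UMIs in 17 of 177 BLM cells and 1 UMI in 50 naive cells (86.6 and 8.36 CPM), a log2 ratio of 3.37 [0.80, 8.72]. Gata3 stood at 252 CPM [206, 306] in these BLM cells against 150 CPM [89.1, 238] in naive, with a log2 ratio of 0.75 [0.01, 1.56]. The sub-cluster with Gata3 and Il1rl1 held almost no cytokine message, with 3 Il5 UMIs in 1 BLM cell, 0 Il13 UMIs and 1 Il4 UMI in each library. Summed over all other T cells, Il1rl1 had 44 and 7 UMIs (log2 ratio 2.51 [1.35, 3.91]) and Gata3 216 and 134 UMIs (0.55 [0.23, 0.87]). Activated CD4 T cells made up 177 of the 729 BLM and 50 of the 642 naive cells, so these sums do not compare like cells. T cells with a Foxp3 UMI numbered 76 and 22, of which 60 and 18 were in the Treg class, so other T cells held some.

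Gamma delta T cells carried Il17rb and Calca. The IL-25 receptor gene was at 112 CPM [70.7, 167] in BLM (15 of 81 cells) and 148 CPM [101, 209] in naive gamma delta T cells (21 of 64 cells), a log2 ratio of -0.41 [-1.25, 0.41]. They held 47.9% of the 48 Il17rb UMIs of the BLM library and 44.4% of the 72 of the naive library, more than ILC2 did (16.7% and 31.9%). Calca was at 77.6 CPM [44.4, 126] in BLM and 106 CPM [67.4, 160] in naive gamma delta T cells, in 6 and 4 cells. Neither difference exceeded its counting interval. NK cells held 15 Calca UMIs in 5 BLM cells and 5 in 5 naive cells (50.2 and 8.44 CPM), a log2 ratio of 2.57 [1.04, 4.39].

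Of the 5 members counted in other T cells, 1 (Il1rl1) was 2-fold or more higher and 0 were lower in BLM, where 1.99% of 8899 genes were higher and 3.79% lower. This class includes a sub-cluster led by NK receptor genes (25 BLM and 49 naive cells). Without it, a choice made after seeing the data, the Il1rl1 ratio was 2.45.

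The basophil or mast class was small, and its members split by type. A cell entered it with a UMI of 3 or more of 12 gate genes, and all 14 cells had 4 or more. All of them had clustered with the stromal cells. By the fixed basophil and mast gene lists there were 3 basophils and 1 mast cell in BLM and 6 basophils and 4 mast cells in naive. Eosinophil genes were nearly absent, at 0 CPM in BLM and 28.1 CPM in naive over 6 genes.

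Il1rl1 lay in the mast cells, which use ST2 to respond to IL-33. The BLM mast cell held 23 UMIs, and the 4 naive mast cells held 39, 18, 22 and 20 UMIs. All 3 BLM and 6 naive basophils were at 0, with depths between 1697 and 2910 UMIs against 4582 to 7229 for the mast cells. The 2 cell types thus did not overlap in either library. Gata3 had 0 UMIs in BLM and 3 UMIs in the naive class.

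Il13 was seen in both types. In BLM it was found in 2 basophils (6 and 4 UMIs) and not in the mast cell. In naive it was found in 1 basophil (3 UMIs) and in 2 mast cells (8 and 2 UMIs). Il4, the cytokine for which basophils are best known, was found in 2 BLM basophils (3 and 1 UMIs) and in none of the 6 naive basophils. Il33, Il5, Il17rb, Calca and Il4ra were at 0 in all 14 cells.

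Over the class, Il1rl1 had a log2 ratio of -0.52 [-1.25, 0.14] and Il13 of 1.20 [-0.14, 2.51], both with intervals that include 0. Mast cells made up 1 of 4 BLM and 4 of 10 naive cells, so the first ratio does not compare like cells. With a gate of 2 genes the class grew to 6 and 24 cells and the ratios became 1.12 and 3.27. Of the 2 members counted, 1 was 2-fold or more higher and 0 were lower in BLM, against 8.67% of 346 genes higher and 13.9% lower.

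In dendritic cells Il1rl1 was carried by cDC2, the conventional dendritic cells that prime CD4 T cells. It ranged from 0 to 5 UMIs in 77 BLM cDC2, 16 of which were positive (20.8%, 12.4 to 31.5%), and from 0 to 6 UMIs in 105 naive cDC2, of which 40 were positive (38.1%, 28.8 to 48.1%). Median depths were 5803 and 5630 UMIs, and the thinned shares, without 1 BLM and 3 naive cells under 1000 UMIs, were 3.89% and 9.77%. The level was 57.4 CPM [37.8, 83.5] against 132 CPM [106, 163], a log2 ratio of -1.20 [-1.88, -0.56]. cDC1 held 0 and 3 UMIs and migratory dendritic cells held 0 in both libraries.

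Over all dendritic cells the ratio was -1.81 [-2.49, -1.17], but the make-up of the class differed. Migratory cells numbered 69 in BLM and 15 in naive, cDC1 56 and 82, so the ratio within cDC2 is the closer comparison. Il4ra did not follow, at 119 CPM [89.9, 155] and 129 CPM [103, 160] in cDC2. Of the 2 members counted in dendritic cells, 0 were 2-fold or more higher and 1 was lower in BLM, against 5.98% of 8116 genes higher and 7.58% lower.

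**Figure D4:**
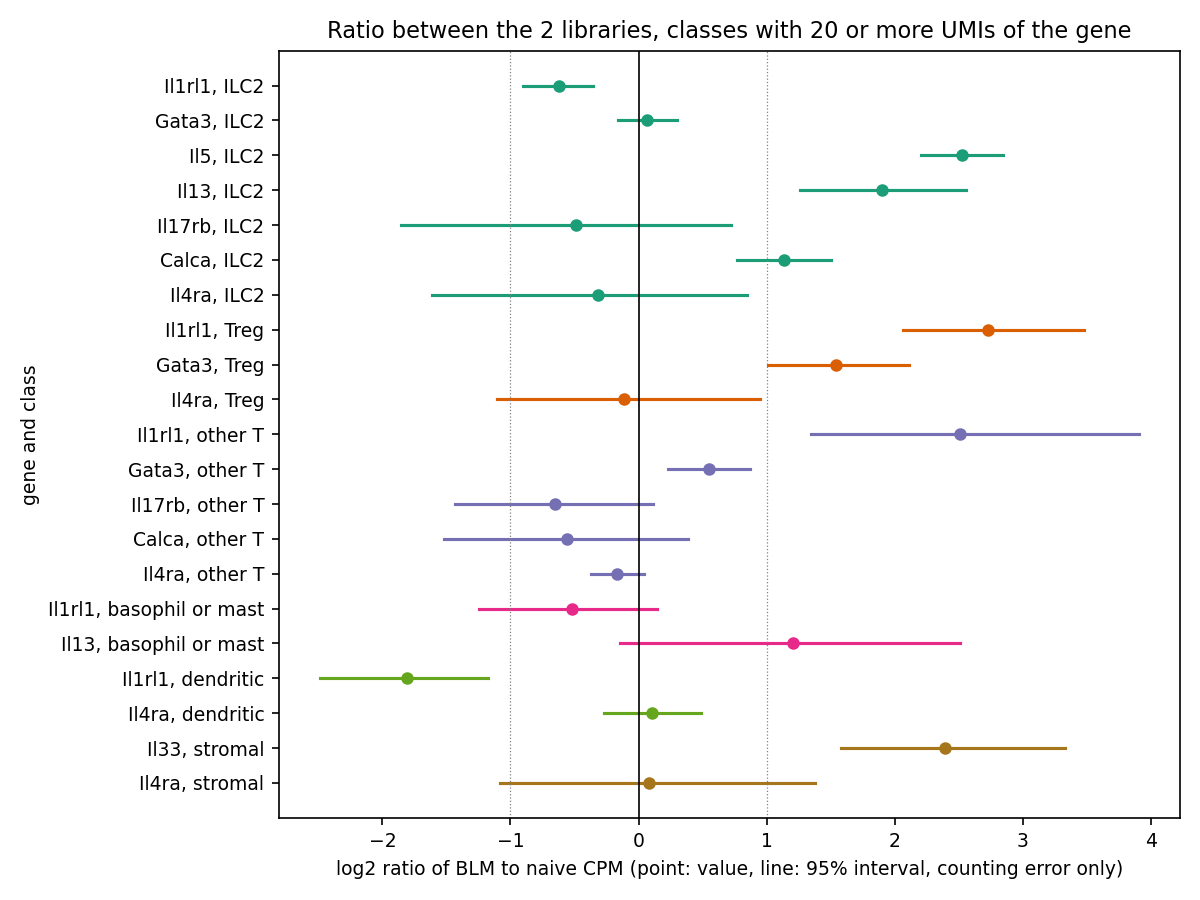
Log2 ratio of BLM to naive CPM (horizontal axis) for each member with 20 or more UMIs over both libraries in each of the 6 classes (rows, coloured by class); points are values, lines are 95% intervals for counting error only, and dotted lines mark 2-fold. Il1rl1 lies to the right of 0 in Tregs (2.73) and other T cells (2.51) and to the left in ILC2 (-0.62) and dendritic cells (-1.81).

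Il33, the ligand gene, was found mostly in stromal cells carried through the CD45+ sort. The stromal class was 1 cluster led by Sparc, Mgp and Eln, less the basophils and mast cells that fell in it. A UMI of Ptprc, which encodes CD45, was seen in 37.4% of its BLM and 45.1% of its naive cells. The class held 91.2% of the 181 Il33 UMIs of the BLM library and 68.4% of the 19 of the naive library. The level was 415 CPM [354, 484] in BLM and 79.1 CPM [42.1, 135] in naive stromal cells, a log2 ratio of 2.39 [1.58, 3.33]. In B cells it was at 0 and 1 UMIs. Alveolar macrophages held 11 of the 181 BLM and 3 of the 19 naive UMIs, at 1.68 and 0.493 CPM. Epithelial cells were hardly sampled, with 8 epithelial markers at a summed 50.3 and 24.3 CPM in the stromal class. Il33 in the epithelium was therefore not measured. All other T cells and dendritic cells together had at most 1 Il33 UMI in each library, and ILC2, Tregs and basophils or mast cells had 0.

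Because the stromal cluster was mixed, its cells were split by the fixed marker lists, a cell being assigned to a list with 3 or more markers detected and more than for any other list. This rule was chosen after seeing the cluster. It gave 23 BLM and 12 naive fibroblast-like cells, 16 and 13 endothelial-like cells and 1 epithelial-like BLM cell. A further 83 BLM and 26 naive cells matched no list; they were shallow (median 817 and 893 UMIs) and held 0 Il33 UMIs.

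Fibroblast-like cells held 158 of the 165 BLM and all 13 naive stromal Il33 UMIs. The 23 BLM fibroblasts ranged from 0 to 76 UMIs (median 2), and 13 were positive. The 12 naive fibroblasts ranged from 0 to 7 (median 0.5), and 6 were positive. The intervals of these shares overlap (34.5 to 76.8% and 21.1 to 78.9%). BLM fibroblasts were deeper (median 6935 against 4929 UMIs), and thinned to 1000 UMIs the shares were 33.9% of 18 and 13.3% of 11 cells, with 5 and 1 shallower cells left out. The 4 highest BLM cells held 76, 24, 17 and 16 UMIs, 84.2% of the BLM fibroblast total. The level was 817 CPM [695, 955] against 201 CPM [107, 343], a log2 ratio of 2.02 [1.21, 2.97]. Without the highest cell of each library it was 2.05 [0.86, 3.53].

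Endothelial-like cells held 7 Il33 UMIs in 3 of 16 BLM cells and 0 in 13 naive cells. Fibroblast-like cells carried no Il1rl1, Gata3 or Il13 UMI in either library. The target receptor gene Il4ra was at 41.4 CPM [17.9, 81.5] in BLM and 61.8 CPM [16.8, 158] in naive fibroblasts. Restricted to stromal cells without a Ptprc UMI, the Il33 ratio rested on 47 and 2 UMIs and was 3.49. Most of the 165 and 13 stromal Il33 UMIs thus lay in cells with a Ptprc UMI. Of the 2 members counted in stromal cells, 1 was 2-fold or more higher and 0 were lower in BLM, against 10% of 5061 genes higher and 7.96% lower.

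**Figure D5:**
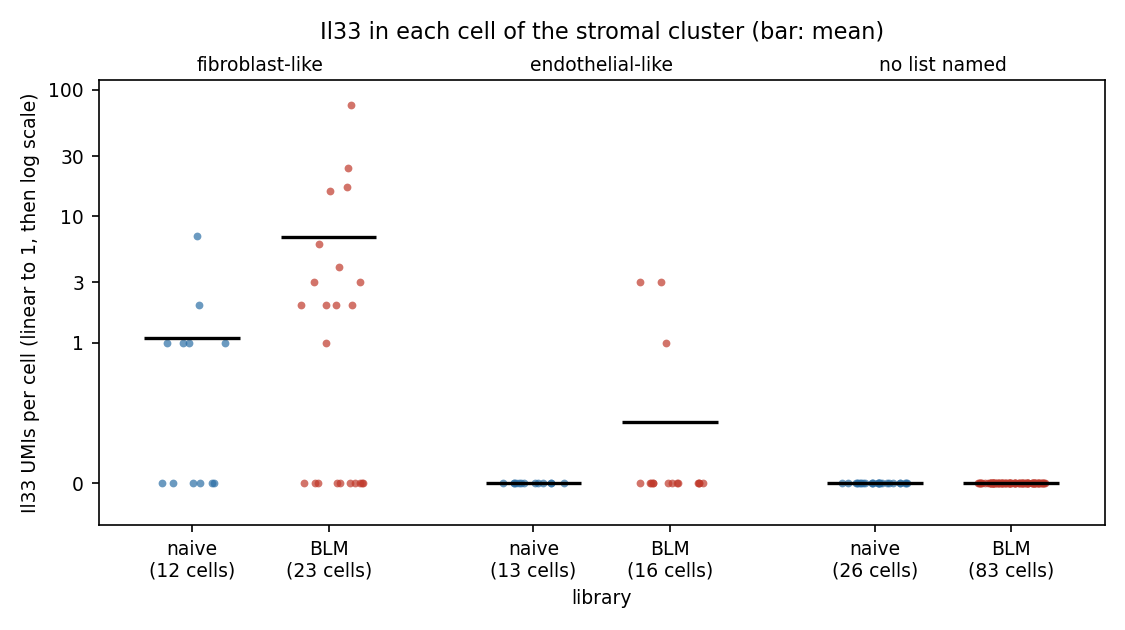
Il33 UMIs (vertical axis, linear to 1 and logarithmic above) in each cell of the stromal cluster, split into fibroblast-like, endothelial-like and unassigned cells and by library (naive in blue, BLM in red), with the 1 epithelial-like cell not drawn; black bars are means over cells. Of the fibroblast-like cells 6 of 12 naive and 13 of 23 BLM were positive, and the highest held 7 and 76 UMIs.

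Il4ra, the receptor gene for IL-4 and IL-13, was the most widespread member and was counted in 5 of the 6 classes, all of them except basophils or mast cells. In none of these did its log2 ratio reach 2-fold, the values lying between -0.32 in ILC2 and 0.11 in dendritic cells with intervals that include 0. Its highest levels were in T cells, at 433 CPM in BLM and 446 CPM in naive in a sub-cluster of 13 and 13 cells led by interferon-induced genes, and at 350 and 301 CPM in naive CD4 T cells. B cells, which also carry the receptor, were at 109 and 95.8 CPM, above the fibroblast levels and near those of Tregs and cDC2. Outside the 6 classes it was higher in BLM in classical monocytes (178 CPM in 68 cells against 46.7 CPM in 33 cells, log2 ratio 1.93 [1.38, 2.51]), in nonclassical monocytes (136 CPM in 44 cells against 35.3 CPM in 32 cells, 1.95 [1.36, 2.56]) and, to a lesser extent, in neutrophils (0.81 [0.39, 1.25]) and alveolar macrophages (0.59 [0.39, 0.80]).

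The other genes of the pathway were taken from a list of 75 genes: receptor partners, other alarmins and ligands, signalling genes, transcription factors and targets of IL-4 and IL-13. Of these, 74 were in at least 1 table. In ILC2, 34 were counted, 3 were 2-fold or more higher (8.82%, against 4.66% of all genes) and 2 lower in BLM (5.88%, against 9.23%), and the list's median log2 ratio was -0.033 against -0.063 for all genes. The 3 higher genes were Areg, which encodes the repair factor amphiregulin (3134 CPM in 25 cells against 1152 CPM in 54 cells, log2 ratio 1.44 [1.23, 1.66], with 78 of 410 BLM UMIs in 1 cell), Csf2, which encodes GM-CSF (1345 CPM in 21 cells against 544 CPM in 34 cells, 1.31 [0.98, 1.63]), and Nfil3, a transcription factor gene of innate lymphoid cell development (214 CPM in 13 cells against 67.1 CPM in 11 cells, 1.67 [0.77, 2.61]). Lowest by the rule for named genes were Il7r, the receptor gene for IL-7 (-0.86 [-1.18, -0.55]), Bcl11b, an identity gene of ILC2 and T cells (-0.78 [-1.52, -0.10]), and Chil3 (-1.15 [-1.98, -0.40]). Chil3 is a macrophage gene that was as high in B cells (165 and 325 CPM) as in ILC2 (138 and 306 CPM), so its value there lies at the background. None of the 11 signalling genes counted was 2-fold apart. The list shares Areg, Il7r, Bcl11b, Rora, Arg1 and Nmur1 with the ILC2 markers, and Csf2 was among the genes that led the ILC2 cluster. The class was thus named partly by genes counted here.

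In Tregs 29 list genes were counted, with 4 higher (13.8%, against 11.7% of all genes) and 2 lower (6.90%, against 7.99%), shares near the background. The list's median was -0.010 against 0.0068 for all genes. Areg was detected in 39 BLM and 3 naive Tregs, at 555 against 90.2 CPM, a log2 ratio of 2.62 [1.66, 3.78]. It was also among the genes that led the Treg sub-cluster. Id2, a transcription factor gene of effector lymphocytes, had a ratio of 1.68 [1.18, 2.22] and Il7r one of 1.11 [0.63, 1.61]. Tcf7, which marks naive and central memory T cells, was at 41.4 against 290 CPM (-2.81 [-4.01, -1.73]), and Ets1 had a ratio of -0.82 [-1.12, -0.51]. Tgm2 (-2.37 [-3.91, -0.99]) rested on 1 naive cell with 11 of 15 UMIs, and without the highest cells its ratio was -0.70 [-2.78, 1.57].

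In other T cells 55 list genes were counted, with 6 higher (10.9%, against 1.99% of all genes) and 1 lower (1.82%, against 3.79%), and a median of 0.027 against -0.091 for all genes. Activated CD4 T cells numbered 177 in BLM and 50 in naive, and naive CD4 T cells 158 and 222. These counts therefore do not compare like cells. The highest were Socs3, a feedback inhibitor of cytokine signalling (211 against 85.2 CPM, 1.31 [1.03, 1.59]), Areg (1.40 [0.72, 2.14]) and Cd200r1 (2.61 [1.09, 4.59]). The lowest were Tcf7 (-0.61 [-0.76, -0.47]) and, at or under their level in B cells, Chil3 (-0.93 [-1.14, -0.73]) and Il18 (-1.78 [-3.05, -0.65]). In basophils or mast cells 5 were counted, with 0 higher and 2 lower, where 8.67% and 13.9% of all genes were (median -0.83 against -0.0020), and Csf2rb, the beta chain gene of the GM-CSF and IL-5 receptors, had a ratio of -0.83 [-1.53, -0.20].

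In dendritic cells 53 list genes were counted, with 9 higher (17%, against 5.98% of all genes) and 11 lower (20.8%, against 7.58%), and a median of -0.089 against 0.018. The list shares Ccl22, Socs2 and Irf4 with the markers of dendritic subsets. Migratory cells numbered 69 in BLM and 15 in naive, so these counts do not compare like cells, and the part of the make-up was not tested. Areg had a ratio of 2.62 [1.87, 3.45], with 51 of its 111 BLM UMIs in 1 cell. Arg1 (151 and 1 UMIs) and Ccl24 (176 and 0 UMIs), both known as genes of alternatively activated macrophages, owed 116 and 111 of their BLM UMIs to 1 cell each, and Retnla (-2.60 [-3.05, -2.18]) owed 232 of 308 naive UMIs to 1 cell. Lowest besides were Ets1 (-2.49 [-3.26, -1.80]), which was far higher in B cells (973 and 1256 CPM), and Il1a (-1.98 [-2.56, -1.44]).

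In stromal cells 33 were counted, with 6 higher (18.2%, against 10% of all genes) and 3 lower (9.09%, against 7.96%), and a median of 0.049 against -0.014. These counts use all 123 BLM and 51 naive cells of the class, of which 83 and 26 were assigned to no stromal marker list. Arg1 (80 and 0 UMIs, a bound of 11-fold or more with 3 counts allowed in naive), Socs2 (2.02 [0.70, 3.70]) and Retnla (1.69 [0.68, 2.87]) were highest, although 37 of the 70 BLM Retnla UMIs lay in 1 cell and the ratio without the highest cells was 0.997 [-0.28, 2.54]. Chil3 (-1.57 [-1.75, -1.39], with 216 of 566 naive UMIs in 1 cell), Mrc1 (-1.62 [-2.16, -1.09]) and Il18 (-1.27 [-2.24, -0.30]) were lowest. All 3 are expressed by macrophages, Lyz2 stood at 5925 and 6351 CPM in the same stromal cells, and the part of free RNA or attached macrophages in their values was not tested.

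Likeness to the members was measured over 39 combinations of class and library with 20 or more cells, as Pearson's r of log2(CPM + 10) among 10904 genes with 100 or more UMIs. For Il5 the nearest genes were Csf2 (r = 0.98), Stab2 (0.90) and Pcsk1 (0.89), and for Il13 they were Csf2 (0.94), Stab2 (0.92) and Ccdc184 (0.92). Calca was nearest to Pcsk1 (0.91), a gene for a prohormone-cleaving enzyme, Stab2 (0.86) and Csf2 (0.85). Il1rl1 was nearest to Ptpn13 (0.84), Ccr8 (0.76) and Pcsk1 (0.73), and Gata3 to Slain1, Xlr4a and Tox (0.91, 0.91 and 0.90). Il17rb was nearest to Tnfsf11 (0.94), Podnl1 (0.89) and Ero1l (0.89), and Il33 to the fibroblast genes Vegfd, Adamts1 and Col5a2 (0.99 each). Il4ra had no close match (Pnrc1, 0.71, Ankrd11, 0.70, and Kdm4b, 0.70). The high values for Il5, Il13, Calca and Il33 rest on the few combinations in which these genes are found at all, and libraries and depth are shared among the points.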

How the data were processed

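The authors sorted living CD45+ lung cells, prepared BD Rhapsody whole-transcriptome libraries and deposited 1 table of raw UMI counts per library, with no normalisation. Per the file headers, the reference was GRCm38 with GENCODE annotation. The strand setting of the counting is not given in the sources used here, so reads of Il5, Gata3, Il4ra and Il17rb cannot be told apart from those of genes that overlap them on the opposite strand. Genes listed in only 1 table were set to 0 in the other.

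Filtering kept barcodes with at least 200 genes and no more than 15% mitochondrial UMIs (4526 of 4714 in BLM, 3925 of 4062 in naive). The top 3% by Scrublet score (scanpy 1.11.5) were left out as doublets (135 and 117), because its automatic threshold called only 8 and 61. Libraries were integrated in Seurat 5.3.0 (R 4.3.3, canonical correlation, 2000 variable genes without the 9 members and Tff1, 30 dimensions, resolution 0.5). Clusters with Cd3e in 50% or more of cells were integrated again with 20 dimensions and sub-clustered. Clusters were named from marker lists. Cells of the basophil or mast class had all fallen in the stromal cluster and were taken from it by their gate genes. Names of clusters were rebuilt here and can differ from the study's.

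Levels, shares and ratios carry exact 95% intervals (scipy), for counting error only. PCR duplicates were collapsed by UMI. Intervals were tried on counts simulated under the model they assume, and thinned shares against random draws. The simulated counts held no clumping of UMIs within cells, so they cannot show how the intervals hold under it. A gene was counted in a class with 20 or more UMIs over both libraries and called at 2-fold. Named genes were the 9 members, the 3 list genes highest and the 3 lowest per class by the interval end nearer 0, and the 3 genes most like each member that had 50 or more UMIs in all. The members, lists and rules were chosen with earlier results of these data known. Alternatives covered clustering, integration, doublets, mitochondrial share, class definitions, scale and single cells.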

Additional observations from a re-analysis of the deposited data

Results flagged for a closer look

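The ratio of Il1rl1 pointed in opposite directions in different classes, with intervals on opposite sides of 0. Its log2 ratio of BLM to naive was 2.73 in Tregs and 2.51 in other T cells, against -0.62 in ILC2 and -1.81 in dendritic cells. The ILC2 value depends on the scale, at -0.0098 as mean UMIs per cell. The dendritic value mixes subsets, and within cDC2 the ratio was -1.20 [-1.88, -0.56]. The value in other T cells mixes sub-clusters too. Activated CD4 T cells (177 in BLM, 50 in naive) held 35 of its 44 BLM and 1 of its 7 naive UMIs. Within them the ratio was 3.37 [0.80, 8.72]. The difference between classes was not tested, since each group is 1 library.

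Members were also seen in a cluster outside the 6 classes, which stayed unnamed because it was led by cell-cycle genes (Top2a, Pclaf, Mki67) and held 48 BLM and 30 naive cells. Its BLM cells held 93 Il1rl1, 120 Gata3, 37 Il5 and 19 Calca UMIs, and its naive cells held 6, 46, 0 and 0. Of the Il1rl1 UMIs, 70 lay in BLM cells with a Foxp3 UMI and 21 in BLM cells with neither Foxp3 nor Cd3e. All 37 Il5 UMIs lay in 2 BLM cells with neither Foxp3 nor Cd3e, 33 of them in 1 cell, and 17 of the 19 Calca UMIs lay in 1 such cell. Calca was under the minimum of 20 UMIs, and no fold is given for either gene because 1 cell decides it.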

How the results depend on the processing

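The members' ratios that the text leads with (Il5, Il13, Calca and Il1rl1 in ILC2, Il1rl1 and Gata3 in Tregs, Il1rl1 in other T and dendritic cells, Il33 in stromal cells) had the sign of the reported value in 100 of 100 recomputed log2 ratios, and the other members' ratios in 120 of 131. That count takes Il1rl1 in ILC2 at -0.0098 as the same sign. Among these ratios and the pathway counts below, 18 recomputed values moved past their limit, which for a ratio is the reported interval, and 94 did not. Some settings left the cells of a class unchanged. Resolution 0.3 gave the same numbers of cells and UMIs in every class but the stromal one. Resolution 1.0 did so for ILC2 (37 and 116 cells), among others. In such cases the sign could not change, so the count is not one of independent checks. With clusters built without integration, the ratio in Tregs was 1.35 for Il1rl1 and 0.94 for Gata3. With the highest cell of each library left out, Il5 in ILC2 was at 2.86. With ILC2 taken by marker genes (4 and 17 cells), Il5 was at 4.82 and Calca at 1.55. With stromal cells lacking a Ptprc UMI, Il33 was at 3.49. The size of the stromal class turned on the setting, from 123 BLM and 51 naive cells as reported. It was 72 and 26 cells at resolution 0.3, 44 and 25 at resolution 1.0 and 73 and 25 without integration. Each held the same 165 and 13 Il33 UMIs, with ratios of 2.39, 2.44 and 2.15. As mean UMIs per cell, a scale chosen after seeing the data, ILC2 gave -0.0098 for Il1rl1, 3.14 for Il5 and 1.75 for Calca, the deeper BLM cells entering by construction. The mean of per-cell CPM put Calca in other T cells at 0.51. Apart from the change of scale, the cause of these shifts was not tested.

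Pathway genes past 2-fold numbered 5 in ILC2, 6 in Tregs, 7 in other T cells, 2 in basophils or mast cells, 20 in dendritic cells and 9 in stromal cells. With 50 or more UMIs required, they were 3 in ILC2, 4 in Tregs (0 of them lower, against 2), 2 in other T cells, 0 in basophils or mast cells and 5 in stromal cells, since fewer genes were counted. At 3-fold they were 1 in ILC2, 4 in Tregs, 3 in other T cells, 1 in basophils or mast cells, 10 in dendritic cells and 5 in stromal cells. No value could be had for Il1rl1 in basophils or mast cells without the highest cell, or for Il13 and Il17rb in ILC2 taken by marker genes. No paired analysis was possible because each group is 1 library. Few cells lie behind the values of the naive Tregs (28), the naive fibroblasts (12) and the basophils or mast cells (4 and 10).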

Other observations

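Outside ILC2, basophils or mast cells and the cycling cells, 3 cells held 3 or more UMIs of Il4, Il5 and Il13 together, all in the BLM library. A cell of the interstitial macrophage cluster (6099 UMIs) held 3 Il4, 10 Il5 and 8 Il13 UMIs beside 72 Lyz2 UMIs and 4 of the 13 ILC2 markers. An activated CD4 T cell (1711 UMIs) held 3 Il5 and 4 Cd3e UMIs. A stromal cell (1468 UMIs) held 4 Il13 UMIs. They were chosen after their values were seen.

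Calcb, the gene of the other CGRP, which lies 82.3 kb from Calca on chromosome 7, had 152 UMIs in the BLM and 6 in the naive library over all kept cells, and 0 in ILC2.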
